A study of Homo sapiens with 2 samples.

Results

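Polypyrimidine tract binding protein 1 (PTBP1) is an hnRNP protein that holds pyrimidine-rich stretches of RNA and acts on alternative splicing, polyadenylation, mRNA stability and translation. Exons make up only a small part of most human genes but nearly all of the mature mRNA, whereas introns are present only until splicing is complete. A peak that lies in an exon well inside a gene is therefore a stretch that both the precursor and the mature mRNA can carry. The exon peaks in the gene body were described here, that is, the peaks of the mRNA table that the authors classed as exon and whose centre lay less than 0.9 of the way from the transcript start to the transcript end. Position was the distance from the transcript start divided by the genomic length of the transcript, introns included. There were 1781 such peaks, each counted once, and they were named for 1397 genes. They were 64.8% of the 2747 exon peaks (95% Wilson interval 63.0 to 66.6%) and 21.0% of all 8479 mRNA peaks (20.2 to 21.9%).

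The study used RNA immunoprecipitation followed by sequencing (RIP-seq) to ask which RNAs PTBP1 held in MKN-28, a cell line derived from gastric cancer that was grown without further treatment. One immunoprecipitation used a PTBP1 antibody (1 library) and the other used normal rabbit IgG as the negative control (1 library). Each peak is a comparison of the PTBP1 library with the IgG library, and the files used here give no value for each library alone. The authors gave every peak a count of tags (sequenced fragments inside it), a fold enrichment of PTBP1 over IgG, a p score and a false discovery rate. That score is 10 times the negative log10 of the p-value, so a larger one means a smaller p. The header does not say which library the tags were counted in. There is no replicate check with 1 library a group, so no test across peaks or genes was run, and intervals cover counting error only. The total number of tags per library is not known here. Peaks in the same gene share their RNA and are not independent.

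The class and the position chose the members and are not findings. Members close to the limit were in UBAC2 (89.97% of the way along the transcript, 10 tags, 5.31-fold) and TEF (89.98%, 12 tags, 8.99-fold). The 3 exon peaks just past it were in FEM1C (90.02%, 33 tags, 5.17-fold), CCNT2 (90.03%, 10 tags, 6.52-fold) and POU2F1 (90.04%, 20 tags, 3.79-fold). The peaks on either side of the limit overlapped in tags and fold. The promoter class takes the first bases of a gene, so that the member nearest to a transcript start lay 2030 bases after it. The median member lay 21756 bases after the start. The members nearest to the start as a share of transcript length were in PCDH7 (0.89%, 33 tags, 2.95-fold), TRAPPC9 (0.92%, 28 tags, 4.93-fold) and MAP3K13 (1.29%, 6 tags, 3.27-fold), all in long genes. Of the members, 809 were listed with several transcripts, and another listed transcript put 20 of them at or past the limit.

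Most exon peaks in the gene body were small. They held a median of 11 tags (quartiles 7 and 23, highest 1769), against 24 for exon peaks in the last 10% of the gene, 10 for intron peaks and 13 for all mRNA peaks. A total of 537 members (30.2%, 28.1 to 32.3%) had at least 20 tags, against 55.5% of exon peaks in the last 10% (52.3 to 58.6%), 21.9% of intron peaks (19.8 to 24.3%) and the background of 36.6% over all mRNA peaks. The lowest tag counts were common, with 729 members (40.9%) at 6 to 9 tags, against 36.6% of all mRNA peaks. At least 100 tags were reached by 101 members (5.67%), against 9.65% of all mRNA peaks. By tag count the exon peaks of the body thus stood between the intron peaks and the exon peaks of the last 10%, with shares whose intervals did not overlap.

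Fold enrichment followed the reverse order. The median fold was 6.75 in the gene body (quartiles 4.65 and 10.21, range 2.09 to 30.35), against 5.99 in exons of the last 10%, 8.30 in introns and 7.08 over all mRNA peaks. A fold of at least 10 was reached by 455 members (25.5%, 23.6 to 27.6%), against 14.6% of exon peaks in the last 10% (12.5 to 17.0%), 33.6% of intron peaks (31.1 to 36.3%) and the background of 24.0% over all mRNA peaks. The members' share was near that background. The median p score was 49.6, against 47.34 in the last 10% and 43.38 in introns. The false discovery rate was high throughout, with a median of 45.06% and a lowest value of 43.07% (in VAC14, 6 tags, 9.46-fold). Below 50% lay 87.7% of members. Over all mRNA peaks the median was 44.97% and 87.9% lay below 50%, so the members were near that background.

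The false discovery rate did not mark out the weakest peaks. The 378 members with a p score of 40 to 50 had a median false discovery rate of 43.99%. The 111 members with a p score of 100 to 150 had 62.7%, and the 20 members at 200 or more, with a median of 178 tags, were all listed at 100%. The deposited rate thus increased with the p score above a score of 50, and members were not filtered on it. The KDM4A peak (9 tags, 3.68-fold) and the OTULIN peak (11 tags, 7.56-fold), both at 43.09%, came next after VAC14, while the large peaks of PERP and MYADM were at 100%.

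**Figure D1:**
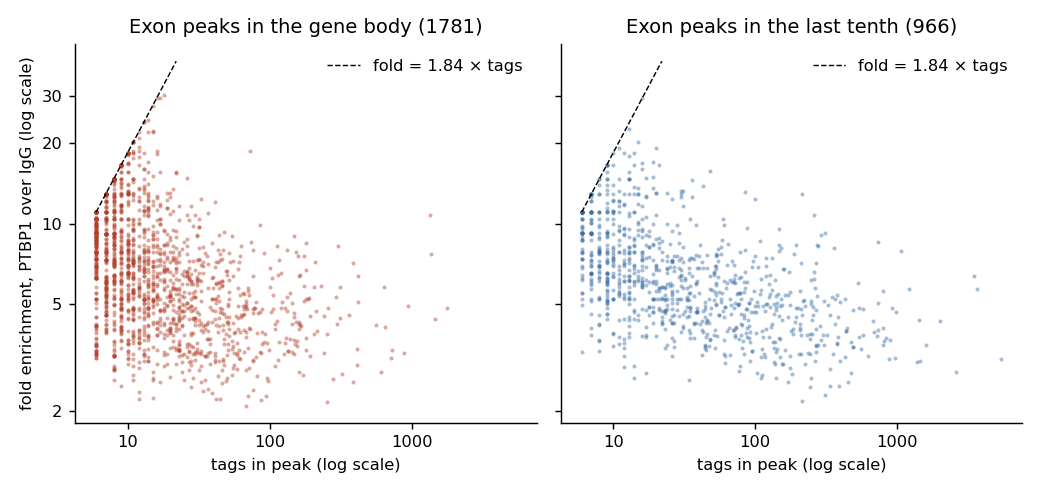
Fold enrichment of PTBP1 over IgG (vertical axis, log scale) against the tags in a peak (horizontal axis, log scale), 1 point per peak, for 1781 exon peaks in the gene body (left) and 966 exon peaks in the last 10% of the gene (right). The dashed line is a fold of 1.84 for each tag. In the body, 220 peaks lay on it and none above it, and folds of at least 10 were mostly on the left side of the panel, where tags were fewest.

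High folds belonged to peaks with few tags. Every mRNA peak listed had at least 6 tags and a p score of at least 30. A floor on the p score limits the low folds that peaks with few tags can have. How far it sets the relation of fold to tags, and the order of the classes by fold, was not tested. The median fold was 9.20 in the 452 members with 6 or 7 tags, 6.83 in the 515 with 10 to 19 tags and 4.52 in the 101 with at least 100 tags. Of the 455 members with a fold of at least 10, 435 had fewer than 20 tags. Over all mRNA peaks, 2032 reached that fold, of which 723 had 6 or 7 tags, 487 had 8 or 9 and 649 had 10 to 19. The fold of 220 members (12.4%, 10.9 to 14.0%) was 1.84 for each tag to within 0.011. That ratio was found in 3% of exon peaks in the last 10% (2.10 to 4.28%) and 9.99% of intron peaks (8.47 to 11.8%). The background over all mRNA peaks was 7.75%. The 220 members had 6 to 16 tags, and 112 of them had 6 tags and a fold of 11.04. No member exceeded this ratio. The order of the body and the last 10% differed between tag classes. Median folds were equal at 6 or 7 tags (9.20 in both). The body was higher at 8 or 9 tags (8.60 and 7.72) and at 100 or more (4.52 and 4.31). It was lower at 10 to 19 (6.83 and 7.31), 20 to 49 (5.04 and 5.53) and 50 to 99 tags (4.25 and 5.09). The higher median fold of the body over all tags was thus not present in most tag classes.

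Exon peaks in the body were also short. Their median length was 336 bases (quartiles 284 and 576, range 200 to 7219), against 870.5 bases in the last 10%, 524 in introns and 529 over all mRNA peaks. Under 400 bases were 1113 members (62.5%, 60.2 to 64.7%), against 16.0% of exon peaks in the last 10%, 25.1% of intron peaks and 33.6% of all mRNA peaks. The difference from the last 10% was present at equal tags: members with 10 to 19 tags had a median length of 334 bases, against 617 for exon peaks of the last 10%. Tags per kilobase of peak had a median of 30.9 in the body, 28.6 in the last 10% and 20.1 in introns. Whether the short peaks follow the length of the exons was not tested, since exon boundaries were not used here.

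The 187 members of at least 1000 bases (10.5%, against 18.2% of all mRNA peaks) differed from the rest in tags, fold and gene. They had a median of 71 tags and a median fold of 5.10, lay in transcripts with a median length of 15057 bases and held 50.7% of all tags in members. The 1113 members under 400 bases had a median of 9 tags and a fold of 7.18, lay in transcripts with a median of 55596 bases and held 25.2% of the tags. A fold of at least 10 was reached by 5 of the wide members (2.67%) and by 353 of the short ones (31.7%). In 96 members (5.39%) the 3′ edge of the peak reached past 0.9 of the transcript, although the centre did not, with a median of 92 tags and 1507 bases in transcripts of a median of 8645.5 bases. In 16 of these the peak ran to the listed transcript end. A large peak in a short gene can therefore be counted in the body while covering much of the 3′ end, and the files do not separate coding exon from untranslated region.

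**Figure D2:**
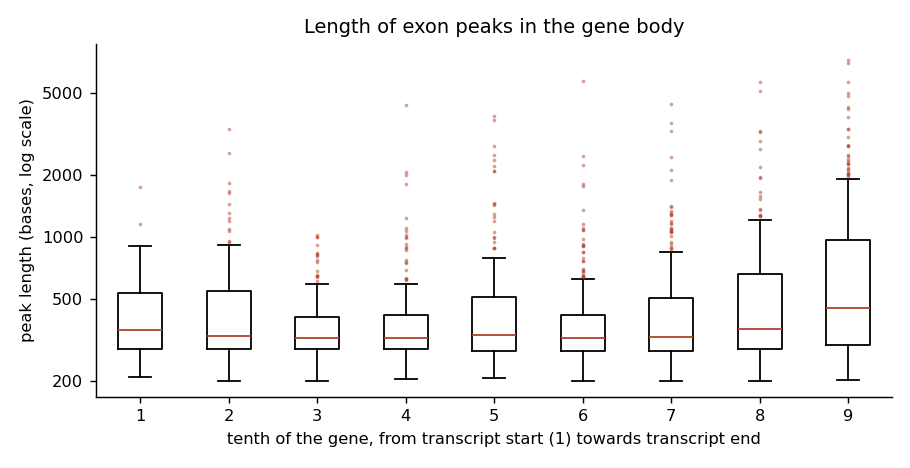
Length of exon peaks in the gene body (bases, log scale) in 9 equal bins of position, from the transcript start (left) towards the limit of 0.9 (right). Boxes show quartiles with the median as a line, whiskers reach to 1.5 times the interquartile range and points are single peaks beyond that. Median length was 323 to 358 bases in the bins before the last and 452.5 bases in the last, where 86 of 356 peaks were at least 1000 bases long.

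The peaks were not spread evenly along genes. The share of members per bin of 10% of the transcript was 3.03% in the first bin, 7.02% in the second and 13.5% in the fifth, and reached 20% (18.2 to 21.9%) in the ninth, from 0.8 to 0.9. The 1191 intron peaks over the same range had 7.39% in the first bin, 13.3% in the fifth and 9.07% (7.57 to 10.8%) in the ninth. The excess of exon peaks over intron peaks near the 3′ side was also present in transcripts of at least 100 kb, in which the promoter class takes a small part of the first bin. There, 19.2% of 386 members lay in the ninth bin (15.6 to 23.4%), against 11.4% of intron peaks (8.43 to 15.2%). The number of exon bases per bin was not counted, so no share expected from exon length is given.

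**Figure D3:**
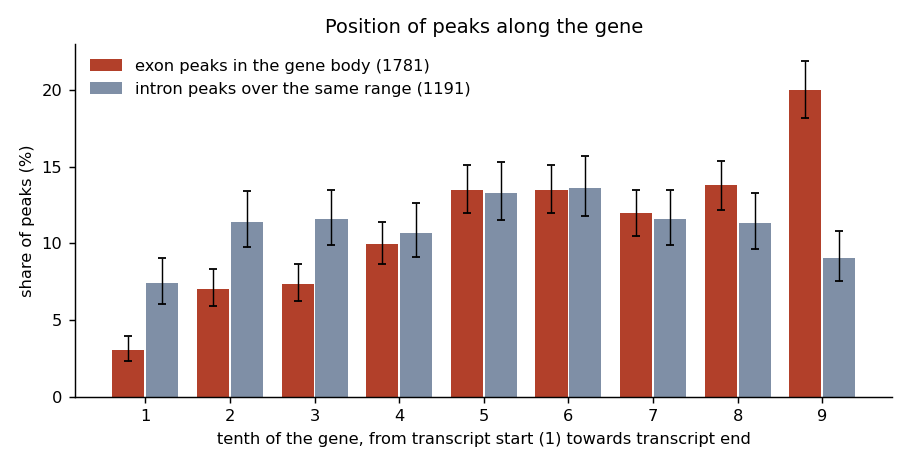
Share of peaks (%) in each of 9 bins, each covering 10% of the gene, from the transcript start, for exon peaks in the gene body (red) and intron peaks over the same range (grey). Error bars are 95% Wilson intervals. Exon peaks were 20% in bin 9, where intron peaks were 9.07%.

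The 3′ side also held the larger members. In the ninth bin 41.6% had at least 20 tags and 24.2% were at least 1000 bases long, against 19.8 to 32.7% and 1.53 to 11.8% in the other 8 bins. Gene length went with both. The 154 members in transcripts shorter than 10 kb had a median of 27 tags and 781.5 bases, whereas the 386 members in transcripts of at least 100 kb had a median of 9 tags and 308 bases. The median fold was 6.22 in the short transcripts and 7.44 in the long ones. Counted once per peak, the median transcript with a member was 45412 bases long. The medians were 56107.5 for exon peaks in the last 10%, 60068 for intron peaks and 35919 over all mRNA peaks.

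The 15 members with the most tags held 412 to 1769 tags. PERP, which encodes a desmosome-associated p53 target, had 1769 tags at 4.85-fold on chromosome 6 (138411911 to 138413528, hg19), centred 83.82% of the way along the transcript. TGOLN2, the trans-Golgi network protein used as a marker of that compartment, had 1450 tags at 4.39-fold on chromosome 2 (85545152 to 85550239). GRINA, a membrane protein of the TMBIM family, had 1361 tags at 7.72-fold on chromosome 8 (145065210 to 145067647), in a transcript of 3358 bases. MYADM, a membrane protein with MARVEL domains, had 1346 tags at 10.76-fold on chromosome 19 (54376657 to 54379710) and the highest p score of any member, 2290.24. MYADM was the only one of the 15 largest peaks with a fold of at least 10.

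TMED4, a cargo receptor of the p24 family, had 651 tags (4.12-fold, chromosome 7, 44617302 to 44619330), and BET1L, a Golgi SNARE, had 422 tags (6.39-fold, chromosome 11, 202395 to 205651). MLEC, a carbohydrate-binding protein of the endoplasmic reticulum, had 730 tags (3.37-fold) over 5652 bases on chromosome 12 (121133983 to 121139634). SYNGR2, a synaptogyrin, had 887 tags (3.28-fold), and CRTAP, a subunit of the collagen prolyl 3-hydroxylation complex, had 946 tags (4.94-fold). These peaks combined high tag counts with folds below 6.75, the median of all members.

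CDKN1A, the p21 inhibitor of cyclin-dependent kinases, had 418 tags at 5.08-fold on chromosome 6 (36651677 to 36652522). PIM1, a serine-threonine kinase of cell survival, had 412 tags at 3.40-fold on the same chromosome (37141639 to 37143276). MARCKS, a substrate of protein kinase C, had 719 tags (3.14-fold), HMGN4, a nucleosome-binding protein, 604 tags (2.78-fold), ZBTB4, a methyl-CpG-binding repressor, 641 tags (5.78-fold), and MAPK1IP1L 558 tags (4.18-fold). Only the CDKN1A peak among these was shorter than 1000 bases. Of all 15 peaks, those of CDKN1A, GRINA, MARCKS and MAPK1IP1L lay before 0.7 of the transcript.

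The 5 widest members were in UHMK1, EIF4EBP2, FZD4, MR1 and MLEC. UHMK1, a kinase with a U2AF homology motif, had a peak of 7219 bases (387 tags, 7.13-fold) on chromosome 1 (162492188 to 162499406). EIF4EBP2, a repressor of the cap-binding factor eIF4E, had 6996 bases (305 tags, 8.24-fold) on chromosome 10 (72181395 to 72188390). FZD4, a Wnt receptor, had 5690 bases (181 tags, 5.22-fold) and MR1, which presents vitamin B metabolites to T cells, had 5666 bases (256 tags, 4.86-fold). All but FZD4 were centred past 0.78 of the transcript.

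The highest folds were in short peaks of other genes. TM9SF3, a transmembrane protein of the Golgi, led with 30.35-fold at 18 tags on chromosome 10 (98307551 to 98307873). PDE1A, a calmodulin-dependent phosphodiesterase, had 29.55-fold at 17 tags (chromosome 2, 183070600 to 183070932) and PREPL, a serine hydrolase, had 29.45-fold at 16 tags (chromosome 2, 44570820 to 44571184). PNPLA6, a lysophospholipase of neurons also called neuropathy target esterase, had 27.61-fold at 15 tags (chromosome 19, 7614773 to 7615060). RBM27 (24.36-fold, 14 tags), EIF2B3, a subunit of the exchange factor of eIF2 (23.93-fold, 13 tags), UBAC2 (23.93-fold, 13 tags), PHIP (22.23-fold, 15 tags), CREB3L2 (22.09-fold, 12 tags) and TLDC1 (22.09-fold, 14 tags) followed. These 10 peaks had 12 to 18 tags, and all but TLDC1 were shorter than 400 bases. None of the genes with the 15 largest peaks was among them.

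A fold of at least 10 was combined with at least 20 tags in 20 members. At 20 to 49 tags, 5.50% of members reached that fold, against 8.88% of all mRNA peaks. The shares were 0.917% and 2.49% at 50 to 99 tags, and 0.990% and 1.71% at 100 or more. The combination was thus uncommon over all mRNA peaks as well. These 20 members were chosen after their values were seen. MYADM led them, followed by DUSP7, a dual-specificity phosphatase, with 73 tags at 18.73-fold on chromosome 3 (52087995 to 52088566) and a p score of 363.48. The other 18 had 20 to 41 tags. The transcription factor FOXK2 had 41 tags (12.07-fold), the iron transporter SLC11A2 37 tags (10.97-fold), RBBP9 33 tags (12.40-fold) and the chloride-proton exchanger CLCN3 32 tags (10.38-fold). MARCH6, a ubiquitin ligase of the endoplasmic reticulum, had 2 such peaks, with 28 and 27 tags at 11.64-fold and 10.36-fold. EIF2AK1, the haem-regulated kinase of eIF2, had 26 tags at 14.77-fold, and TPX2, which activates Aurora A on the spindle, had 21 tags at 11.14-fold.

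Most genes carried 1 member. One peak was found in 1115 genes and at least 2 in 282 genes, which held 666 peaks. UBR4, a giant ubiquitin ligase of the N-degron pathway, had the most, with 8 peaks from 33.4 to 89.4% of the transcript on chromosome 1. In transcript order they held 6, 7, 6, 9, 10, 8, 11 and 10 tags, with folds of 8.96, 7.31, 8.52, 13.81, 13.21, 10.69, 18.4 and 7.91. None of these 8 peaks exceeded 11 tags, and 4 of them passed a fold of 10. The peak with the most tags and the highest fold, at 19422791 to 19423250, lay at 83.8% (p score 80.18), while the highest p score, 110.54, was that of the peak at 65.5%. An upstream-class peak of UBR4 held 37 tags at 12.38-fold.

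CEP350, a large centrosomal protein, had 7 members on chromosome 1, with 19, 17, 6, 7, 17, 28 and 13 tags and folds of 8.47, 7.80, 3.55, 12.88, 5.22, 4.70 and 9.43. The last 3 lay within 86 to 89% of the transcript (180061752 to 180065364), next to each other. HEATR5A, a HEAT-repeat protein, had 5 members on chromosome 14 with 6, 9, 8, 7 and 7 tags, at folds of 11.04, 3.98, 2.83, 12.88 and 12.88. Another 18 genes had 4 members each, and AZIN1 and NUP214 were named among them by p score. AZIN1, which binds antizyme and regulates polyamine synthesis, had 14, 77, 16 and 49 tags (10.75, 6.35, 10.30 and 3.86-fold) on chromosome 8 (103845254 to 103852185). NUP214, a nucleoporin of the cytoplasmic side, had 6, 7, 21 and 85 tags (3.32, 12.18, 9.47 and 9.89-fold) on chromosome 9. In AZIN1 the peaks with the fewest tags had the highest folds, and in NUP214 the peak with the fewest tags had the lowest.

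**Figure D4:**
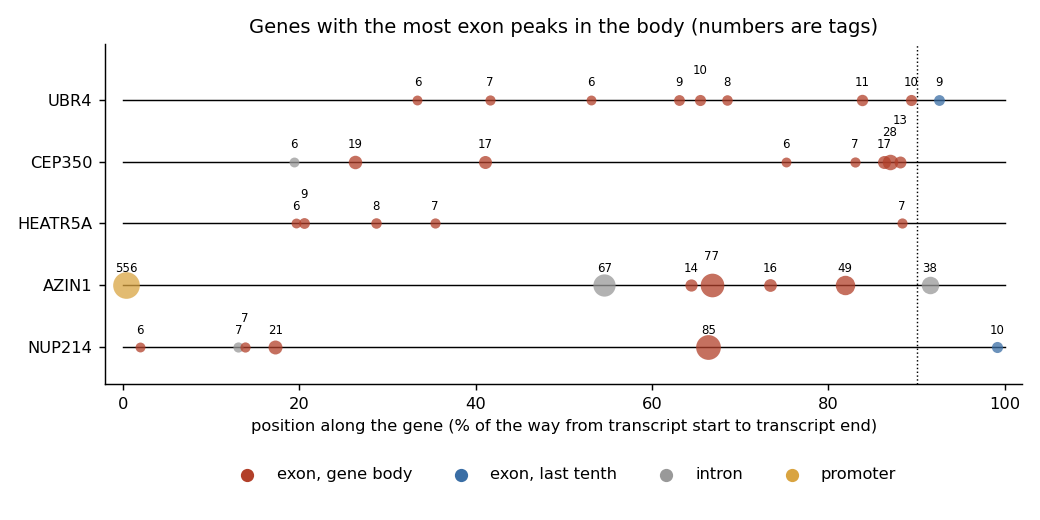
Position of peaks along 5 genes (% of the way from the start to the end of the longest transcript listed for the gene), with 1 dot per peak, dot area increasing with tags up to 100, and the number of tags above each dot. Red dots are exon peaks in the body, blue dots exon peaks in the last 10%, grey dots intron peaks and the yellow dot a promoter-class peak. Peaks before the transcript start are not drawn. The dotted line marks 90%, and the NUP214 peaks with 85 and 10 tags are listed with a shorter transcript in the table. UBR4 peaks held 6 to 11 tags, and the AZIN1 body peaks held 14 to 77.

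Of the 1397 genes, 614 (44.0%, 41.4 to 46.6%) had no mRNA peak of another class. An exon peak in the last 10% was also present in 278 genes (19.9%), a promoter-class peak in 288 (20.6%) and an intron peak in 276 (19.8%). The same shares were not counted for genes with peaks of other classes or for all 5006 genes with an mRNA peak. Whether these 4 shares are high or low is therefore not known. In the 278 genes with both kinds of exon peak, the body peak with the most tags held fewer tags than that of the last 10% in 203 genes, more in 71 and the same number in 4. The medians were 14 tags in the body and 33 in the last 10%. In these genes the fold was higher in the body in 159 genes and lower in 119 (medians 6.54 and 5.40). In the 276 genes with an intron peak, the body exon peak held more tags in 152 genes, fewer in 102 and the same number in 22 (medians 12 and 10), and its fold was lower in 178 genes and higher in 93 (medians 6.34 and 8.70). The order of the classes within genes was thus that seen over all peaks.

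Of the genes central to the study, TGFB1 and PTBP3 were among those with a member. TGFB1, a ligand of the TGF-beta pathway, had a body exon peak of 6 tags at 6.26-fold on chromosome 19 (41850589 to 41850847), 38.5% of the way along the transcript. That was its smallest peak, beside an exon peak of 69 tags (7.23-fold) in the last 10%, an intron peak of 15 tags (6.13-fold) and a promoter-class peak of 779 tags (3.50-fold). PTBP3, a paralog of PTBP1, had 22 tags at 6.57-fold on chromosome 9 (115024702 to 115024930), 61.1% along, with a p score of 169.38. It had an exon peak of 148 tags (9.57-fold) in the last 10% as well. TGFB2, ID2, AGO2 and GAPDH had peaks of other classes only. The ID2 peak (7 tags) was intergenic, centred 51561 bases after the start of a transcript of 2471 bases. The GAPDH peak (70 tags) was of the upstream class, at -7807 bases from the transcript start. Neither lay inside the gene it was named for. No mRNA peak was named for PTBP1, PTBP2 or SMAD5.

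A body exon peak was found for 1395 of 20056 protein-coding genes (6.96%), and this share was the background for 23 gene lists. The lists held 1809 genes in all, 251 of them with a member. They were chosen with earlier results of these data known, and no allowance was made for their number. A list said to lie above or below the background is therefore a description and not a test. The lists were not matched on gene length or RNA level, and the part of either in the shares was not tested. An mRNA peak of any class was found for 25.7% of protein-coding genes. In the lists whose share of body exon peaks lay above the background, that share was 30.6 to 61.4%. The count of any class includes the genes with a body exon peak, and the other classes were not counted alone. Whether a higher share in these lists was particular to exon peaks in the body was therefore not tested. The median transcript of the members ranged from 13830 bases in the glycolytic list to 142036 in the DNA repair list.

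RNA silencing and mRNA decay had the highest share, with 16 of 44 genes (36.4%, 23.8 to 51.1%) and a median of 8 tags and 7.98-fold over 22 peaks. CNOT3, of the CCR4-NOT deadenylase complex, had 24 tags (4.99-fold, chromosome 19, 54649257 to 54649840), and DIS3, an exosome nuclease, 23 tags (4.43-fold, chromosome 13, 73333119 to 73333966). CNOT7, a deadenylase, had 14 tags (4.84-fold) and UPF2, of nonsense-mediated decay, 13 tags (6.38-fold). Only CNOT3 and DIS3 reached 20 tags, and at that minimum the list (2 of 44, 1.26 to 15.1%) no longer stood above its background of 2.37%. SMG1, the kinase that acts on UPF1, had 3 peaks of 9 tags each at 12.68 to 16.56-fold.

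Splicing factors had members in 10 of 52 genes (19.2%, 10.8 to 31.9%). TRA2B had 59 tags (3.57-fold, chromosome 3, 185634589 to 185635608), RBFOX2 31 tags (3.31-fold), SF3B2, of the U2 snRNP, 30 tags (4.44-fold) and RBM25 22 tags (8.10-fold). With a p score of at least 50 the share was 3 of 52 (1.98 to 15.6%), which included its background of 3.72%. The hnRNP and PTBP list had 3 of 28 (10.7%, 3.71 to 27.2%), namely PTBP3, HNRNPM (15 tags, 12.18-fold) and HNRNPLL (6 tags, 11.04-fold). Known PTBP1-regulated RNAs had 4 of 40 (10%, 3.96 to 23.1%). MEF2D, a transcription factor with exons under PTBP1 control, had 242 tags (4.52-fold) over chromosome 1 (156434143 to 156438335), centred at 89.9%, and 55 tags (2.89-fold) beside it. RTN4 had 13 tags (3.38-fold), TPM1 10 (5.39-fold) and SPAG9 6 (9.74-fold). The shares of both lists included the background.

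In the TGF-beta pathway, 10 of 48 genes (20.8%, 11.7 to 34.3%) had a member. The type I receptor TGFBR1 had peaks of 12 tags (2.89-fold, chromosome 9, 101906989 to 101907219) and 9 tags (9.39-fold). SMAD4, the common SMAD, had 11 tags (4.78-fold, chromosome 18, 48581129 to 48581378), the coactivator CREBBP 13 tags (7.25-fold) and ZFYVE9, an anchor for receptor SMADs, 10 tags (12.88-fold). None of the 11 peaks of this list reached 20 tags. In the list of epithelial junction and EMT genes, 7 of 36 (19.4%, 9.75 to 35.0%) had a member, led by plakoglobin (JUP, 60 tags, 4.93-fold, chromosome 17, 39923421 to 39923916). The tight junction scaffold TJP1 had peaks of 45 tags (4.84-fold) and 12 tags (19.35-fold), fibronectin (FN1) 15 tags (3.47-fold) and plakophilin 3 (PKP3) 14 tags (7.12-fold). At 20 tags or more, 2 of 36 junction genes had a member (1.54 to 18.1%), which included the background of 2.37%.

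Chromatin regulators (21 of 65, 32.3%, 22.2 to 44.4%) and the ubiquitin system (17 of 59, 28.8%, 18.8 to 41.4%) had high shares. BAZ2A, of the nucleolar remodelling complex, had 65 tags (4.91-fold, chromosome 12, 57008800 to 57009453), 62 tags (3.13-fold) and 18 tags (6.57-fold) in 3 peaks. The histone demethylase KDM6A had 45 tags (7.68-fold) and SMARCC1, of SWI/SNF, 36 (4.21-fold). In the ubiquitin list, USP36 had 117 tags (3.61-fold, chromosome 17, 76799216 to 76800087) and 51 tags (4.21-fold), HUWE1 63 tags (8.28-fold), the p53 ligase MDM2 44 (5.73-fold) and HERC1 34 (6.96-fold). The 37 peaks of this list had a median fold of 8.96, of which 16 passed a fold of 10, and 8 of the 37 were in UBR4.

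Vesicle traffic (17 of 53, 32.1%, 21.1 to 45.5%), the nuclear pore (10 of 34, 29.4%, 16.8 to 46.2%) and motors and the centrosome (13 of 53, 24.5%, 14.9 to 37.6%) also stood above the background. AP2B1, of the clathrin adaptor, had 77 tags (2.39-fold), and SEC24A, a COPII coat protein that selects cargo, had 74 tags (8.54-fold, chromosome 5, 133996707 to 133997344). LRBA had 44 tags (4.43-fold) and the golgin GOLGB1 41 (4.72-fold). POM121, a membrane nucleoporin, had 149 tags (4.65-fold, chromosome 7, 72412364 to 72414081), NUP50 56 (3.91-fold) and AHCTF1 31 (8.97-fold). POM121 has close paralogs whose reads could be shared, so its tags are uncertain. CEP170 had 79 tags (4.84-fold), SPTBN1, a spectrin, 55 (3.49-fold) and MAP1B, which binds microtubules, 51 (4.94-fold). With at least 20 tags these 3 lists were above the background of 2.37%, the vesicle list with 9 of 53 (17.0%).

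Cell cycle genes (11 of 51, 21.6%, 12.5 to 34.6%) included CDK1, the mitotic kinase, with 50 tags (4.30-fold, chromosome 10, 62544339 to 62544826), the cohesin release factor WAPL with 28 (3.48-fold), MCM3, of the replicative helicase, with 25 (6.39-fold) and TPX2. PI3K, mTOR and MAPK signalling (10 of 52, 19.2%, 10.8 to 31.9%) included PIK3R2, a regulatory subunit of PI3K, with 217 tags (3.96-fold, chromosome 19, 18266244 to 18267081), PIK3C2B with 76 (7.98-fold) and PIK3CA with 20 (5.35-fold). Translation factors and tRNA synthetases (9 of 50, 18%, 9.77 to 30.8%) included EIF3E with 51 tags (3.56-fold) and 36 tags (3.19-fold), EIF4E with 30 (4.18-fold) and WARS with 30 (5.34-fold). All 3 shares lay above the background. DNA repair (5 of 36, 13.9%, 6.08 to 28.7%) did not, although PRKDC, the DNA-dependent protein kinase, had 4 peaks of 9 to 15 tags. At a limit of 0.8 the same share (6.08 to 28.7%) lay above its background of 5.80%. XRCC5, the large Ku subunit, had 33 tags (5.61-fold). Matrix and focal adhesion had 5 of 45 (11.1%, 4.84 to 23.5%), with 12 peaks of which none reached 20 tags. They lay in COL12A1, LAMB1, FBN2, LAMB2 and HSPG2.

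No ribosomal protein gene had a member (0 of 75, upper bound 4.87%), although 12 of the 75 had a peak of some class (16.0%, against 25.7% of protein-coding genes). The rule leaves little room for a member in a short gene, and the shortest transcript with a member was 2602 bases long. How far gene length sets the count of ribosomal protein genes was not tested. Of 21 glycolytic enzymes only LDHA, lactate dehydrogenase A, had one, with 87 tags at 2.19-fold on chromosome 11 (18425121 to 18425437). Ribosomal protein genes were thus below the background of 6.96%. At 20 tags or more, or at a p score of at least 50, their interval included the lower backgrounds of 2.37% and 3.72%. No gastric epithelial marker (0 of 27, upper bound 12.5%) and no blood or immune marker (0 of 27) had a member. Of the 33 markers of stroma, nerve, muscle and liver, ACTA2, smooth muscle actin, had 2 peaks of 10 tags (18.4-fold and 8.06-fold), and actin genes are near-identical to one another in sequence. The intervals of these 3 marker lists included the background of 6.96%. A peak over IgG does not measure RNA level, so these counts do not check the identity of the cells.

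**Figure D5:**
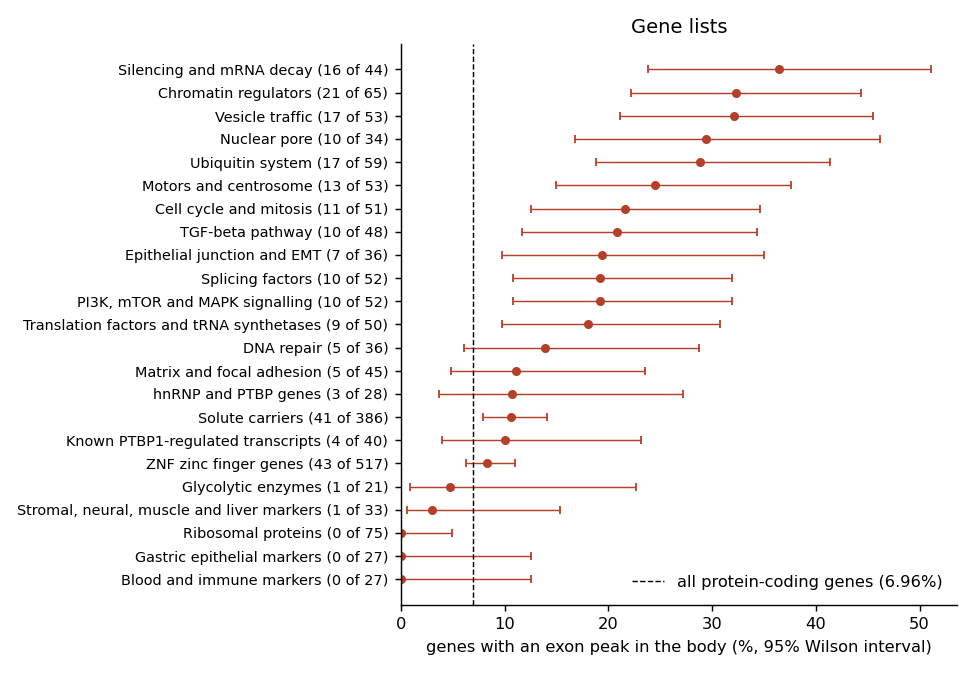
Share of genes (%) with an exon peak in the body for 23 gene lists, with the number of genes beside each name. Points are shares, bars are 95% Wilson intervals and the dashed line is the share over all protein-coding genes (6.96%). Silencing and mRNA decay stood highest at 36.4%, and 3 lists were at 0, among them ribosomal proteins (0 of 75).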

How the data were processed

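RNA was recovered from MKN-28 extracts with PTBP1 antibody or rabbit IgG and 1 rRNA-depleted library of each was sequenced. The submitters' processing notes name cutadapt (1.9.3), Bowtie2 (2.2.4) and hg19. Neither peak caller nor library strand is given in the sources used here. The authors deposited, for each peak, a tag count, a fold enrichment as a ratio, a p-value as a score (negative log10 multiplied by 10) and a false discovery rate as a percent, with peak length and the distance to the transcript start. Promoter tables were not used, since they repeat promoter rows.

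Members were taken from the full mRNA table, each position once by its first row. Positions are hg19 coordinates as deposited, counted from 1. Shares have 95% Wilson intervals. No test was run with 1 library a group. The members and gene lists were chosen with earlier results of these data known. The RefSeq table of GRCh38.p14 was used only for gene names and for which genes are protein-coding, and all 1397 member symbols matched it. The rule was checked on simulated data. The deposited lengths and distances were in bases.

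The text names the study's genes, the 15 members with the most tags, the 10 with the highest fold, the 5 widest, the 5 genes with the most members, up to 4 genes per list by tags, and the 3 members at each edge of position and of false discovery rate. Ties went by p score, then symbol, and a few genes that the rule selects are left out of the text. SMG1, HSPG2, PTCH1, NAV2, HPS3 and the members high in both tags and fold fall outside this rule and were named after their values were seen. Alternatives were other position limits, row choices, minimum tags, fold or p score, merged peaks and 1 peak per gene. Transcripts of at least 100 kb and the position of the 3′ edge were added after seeing the data. Tables were read with pandas (2.3.3) and numpy (2.4.6) in Python (3.11.15), intervals came from scipy (1.17.1) and plots from matplotlib (3.10.9).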

Additional observations from a re-analysis of the deposited data

How the results depend on the processing

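The 1781 peaks and 1397 genes became 1425 and 1166 at a limit of 0.8, 2059 and 1570 at 0.95, and 1685 peaks when the 3′ edge also had to lie before 0.9. Counts fell furthest with minimum values: to 455 peaks in 405 genes at a fold of at least 10, to 537 peaks in 478 genes at 20 tags and to 881 peaks in 748 genes at a p score of 50. At a fold of 5 the share was 69.9%, and 11.8% had at least 50 tags. With at least 20 tags, the median tags were 40, fold 4.72, p score 54.79, false discovery rate 45.24% and length 693 bases, the share in the ninth bin was 27.6%, the share at the fixed ratio of fold to tags was 0.00%, 48 genes had at least 2 peaks, the median transcript was 31453 bases, and 91 of the list genes had a member (142 at a p score of 50). With 1 peak per gene, the median fold was 6.46, the length 346 bases and the transcript 40728 bases. The length was 329 bases at a limit of 0.8, and in transcripts of at least 20 kb the ninth bin held 17.9%. The other 34 values moved by less than their interval or, for counts, by less than 1.5 times. No paired analysis was possible because there was 1 library per group. Few tags limit many peaks: 40.9% of members had 6 to 9 tags, and the depth of the libraries is not known here.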

Other observations

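Of the members, 121 (6.79%, 5.72 to 8.06%) were also listed in the lncRNA table at the same position, against 9.42% of exon peaks in the last 10%, 10.1% of intron peaks and the background of 12.7% over all mRNA peaks. All 121 were classed as exon there, and 118 were named for the same gene, that is, for a noncoding transcript of it. The remaining 3 carried another name only. The peak in PTCH1, the Hedgehog receptor (8 tags, 8.73-fold, chromosome 9, 98231042 to 98231519), was listed under LOC100507346, and a peak of NAV2 (6 tags, 7.64-fold, chromosome 11, 20065520 to 20065851) under NAV2-AS2. A peak of HPS3 (8 tags, 6.96-fold, chromosome 3, 148880471 to 148880689) was listed under a noncoding transcript of CP. Without strand, reads of such neighbours cannot be told apart. The shared peaks had a median of 10 tags and 6.75-fold.

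The zinc finger and solute carrier families are large gene lists. Zinc finger ZNF genes had a member in 43 of 517 (8.32%, 6.23 to 11.0%), which included the background of 6.96%. Their 52 peaks had a median length of 669.5 bases, against 336 over all members. ZNF672 had 181 tags (3.73-fold), ZNF217 135 (3.33-fold), ZNF703 129 (4.82-fold) and ZNF574 110 (4.22-fold). Solute carriers had a member in 41 of 386 (10.6%, 7.93 to 14.1%), above the background, with a median length of 403.5 bases. SLC6A8, the creatine transporter, had 210 tags (7.22-fold), SLC35C1, the Golgi GDP-fucose transporter, 191 (4.52-fold), SLC41A1, a magnesium transporter, 121 (4.85-fold) and the glucose transporter SLC2A3 121 (6.52-fold). At a limit of 0.8 the solute carrier share (8.03%, 5.72 to 11.2%) included its background of 5.80%.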
